A study of Mus musculus with 9 samples.

Results

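The genes described here are 37 genes used as markers of astrocytes, taken by symbol from a list of such genes, out of 54532 genes in a table of cortex RNA from 3 inbred mouse strains. Each of the 37 symbols was found once. The strains were C57BL6/J (B6), C3H/HeJ (C3H) and WSB/EiJ (WSB), with 3 male mice of each, aged 8 to 12 weeks, and the mice carried no added allele and received no treatment. B6 and C3H are classical laboratory strains, the reference genome was made from B6, and WSB was derived from wild mice. Cortex transcripts were compared between these strains to narrow down the candidate genes of a mapped locus that affects the size of the infarct after a stroke. Whole cortex was used, so fewer astrocytes and less RNA per astrocyte cannot be told apart in these values.

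Astrocytes are glial cells that fill the grey matter between neurons. They take up glutamate and potassium, pass water, ions and small molecules through their end feet and gap junctions, carry cholesterol to neurons on apolipoprotein E, and buffer zinc and copper with metallothioneins. When tissue is injured they become reactive, and the intermediate filament genes Gfap and Vim are among those that go up. The 37 genes were ordered by role into 5 genes of the cytoskeleton and nuclear identity, 8 of membrane transport, junctions and water, 5 receptors, 4 of lipid carriage and lipid enzymes, 3 metallothioneins, 6 metabolic and signalling enzymes and 6 secreted and matrix proteins.

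Values are FPKM, that is, reads scaled by the length of the gene and by the size of the library, so levels of different genes can be set side by side. Reads lying on genes numbered 17651630 to 21562429 per B6 mouse, 19042306 to 19433751 per C3H mouse and 16317439 to 17784118 per WSB mouse. All 37 genes passed the filter on low values in each of the 3 comparisons. Mt2 was the least covered, with 3 to 27 reads in a mouse, and each of the other genes had at least 141 reads in every mouse. Strains were compared in pairs with limma on log2(FPKM + 0.1), and a gene passed at a Benjamini-Hochberg adjusted p under 0.05 over all genes tested. A log2 fold change on this scale understates the change of a gene with few reads. WSB against B6 and C3H against B6 share the 3 B6 mice.

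Of the 37 genes, 30 passed in none of the comparisons, which with 3 mice a strain does not show that their levels were equal. In WSB against B6, 10.8% of the 37 passed, beside 1224 of 20746 genes tested. The share was 8.11% in C3H against B6, beside 956 of 20602 genes, and 13.5% in WSB against C3H, beside 1182 of 20607. The 7 that passed in at least 1 were Itih3, Mfge8, Mt3, Vim, Gfap, Slc4a4 and Cbs, which belong to 5 of the 7 role groups. In WSB against B6, Itih3, Mfge8 and Cbs were higher and Mt3 was lower. Itih3, Mfge8 and Vim were higher in C3H than in B6. Itih3 and Slc4a4 were higher in WSB than in C3H, and Mt3, Gfap and Vim were lower. Thus the members that passed moved in both directions wherever WSB was compared.

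**Figure D1:**
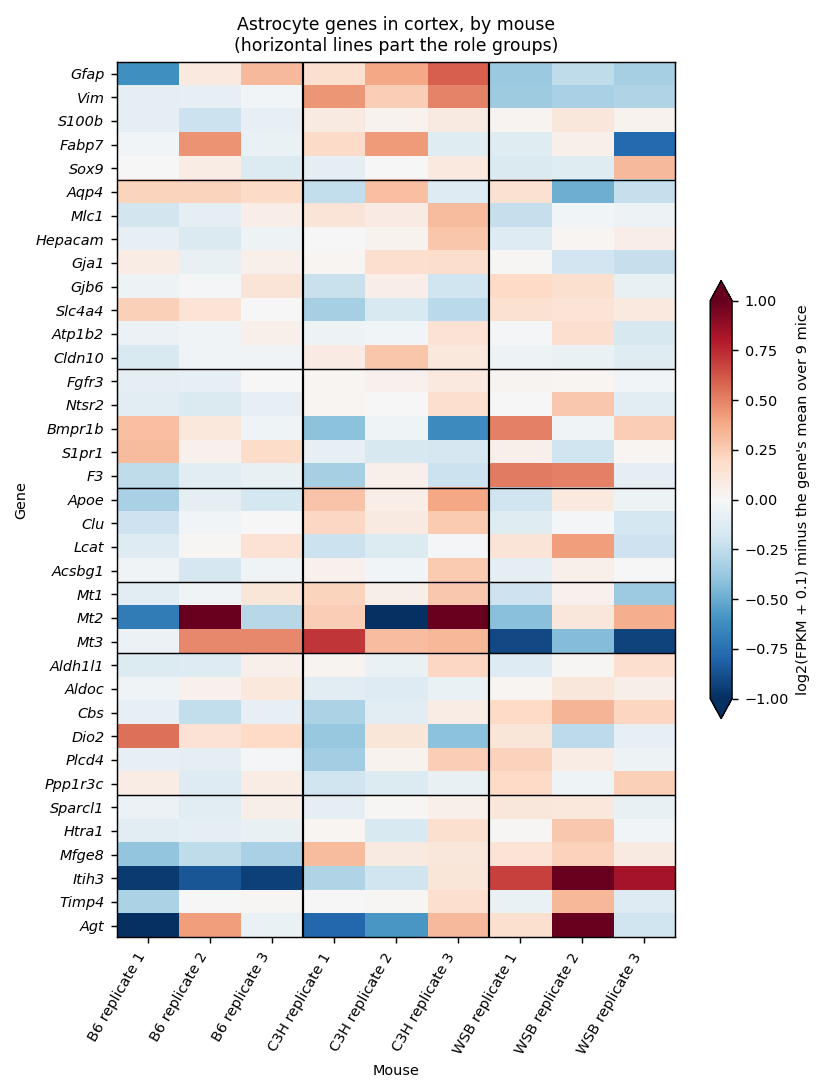
Level of each of the 37 genes (rows, ordered by role) in each of the 9 mice (columns), as log2(FPKM + 0.1) minus the gene's mean over the 9 mice; the colour scale ends at -1 and 1. Itih3 goes from low in B6 to high in WSB, Mt3 is low in the 3 WSB mice, Vim is high in the 3 C3H mice, and most other rows stay pale.

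A shift shared by the list was measured in each mouse as the median over the 37 genes of the log2 level minus the gene's mean over the 9 mice. It was -0.094, -0.038 and -0.0038 in B6 replicates 1, 2 and 3. In C3H it was 0.0047, 0.034 and 0.12, and in WSB it was 0.011, 0.053 and -0.053. The C3H mice lay above the B6 mice by a small margin, while the WSB mice overlapped with both other strains. The strain means (± SD, n = 3) were -0.045 ± 0.045 for B6, 0.053 ± 0.060 for C3H and 0.0035 ± 0.054 for WSB, so the largest gap between strains was about as wide as the range within C3H alone.

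Over the 37 genes the median log2 fold change was 0.067 in WSB against B6, beside 0.0025 over all 20746 genes tested. It was 0.10 in C3H against B6, beside -0.0038 over 20602 genes. In the third comparison, WSB against C3H, it was -0.015, beside 0.0089 over 20607 genes. The sign was above 0 for 24 of the 37 genes in WSB against B6, for 25 in C3H against B6 and for 17 in WSB against C3H. These are descriptions of the list, with no test.

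In WSB against B6, 3 of the 37 genes were higher, or 8.11%, beside 2.81% of all genes tested, and 1 was lower, or 2.70%, beside 3.09%. Between C3H and B6, 3 were higher, or 8.11%, beside 2.38% of all genes tested. None of the 37 passed as lower in C3H with limma on the log2 values, beside 2.26% of all genes tested, although 4 of the 37 were lower at an unadjusted p under 0.05 and Slc4a4 passed as lower with voom weights on the reads and in one fit of the 3 strains. In WSB against C3H, 2 were higher, or 5.41%, beside 2.61%, and 3 were lower, or 8.11%, beside 3.13%. Wholly separate ranges of the 2 strains were seen for 9 of the 37 genes in WSB against B6, or 24.3%, beside 26.0% of all genes tested, which is near the background. In C3H against B6 this was so for 16 genes, or 43.2%, beside 28.9%, and in WSB against C3H for 14 genes, or 37.8%, beside 28.6%.

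To part changes of single genes from a shift of the list, each library was also centred on the list's own median before the test. In WSB against B6, Itih3, Mfge8 and Mt3 still passed, and Cbs did not, at a log2 fold change of 0.34 and an adjusted p of 0.0657 (limma), beside 5.76% of all genes. In WSB against C3H the same 5 genes passed as without centring, beside 4.97% of all genes. Between C3H and B6, Itih3 still passed at a log2 fold change of 0.69, beside 4.34% of all genes, while Mfge8 at 0.40 (adjusted p of 0.0663) and Vim at 0.37 (adjusted p of 0.0747) did not. Measured against the rest of the list, Itih3 thus differed in every pair of strains, and Mt3 in both pairs that include WSB.

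**Figure D2:**
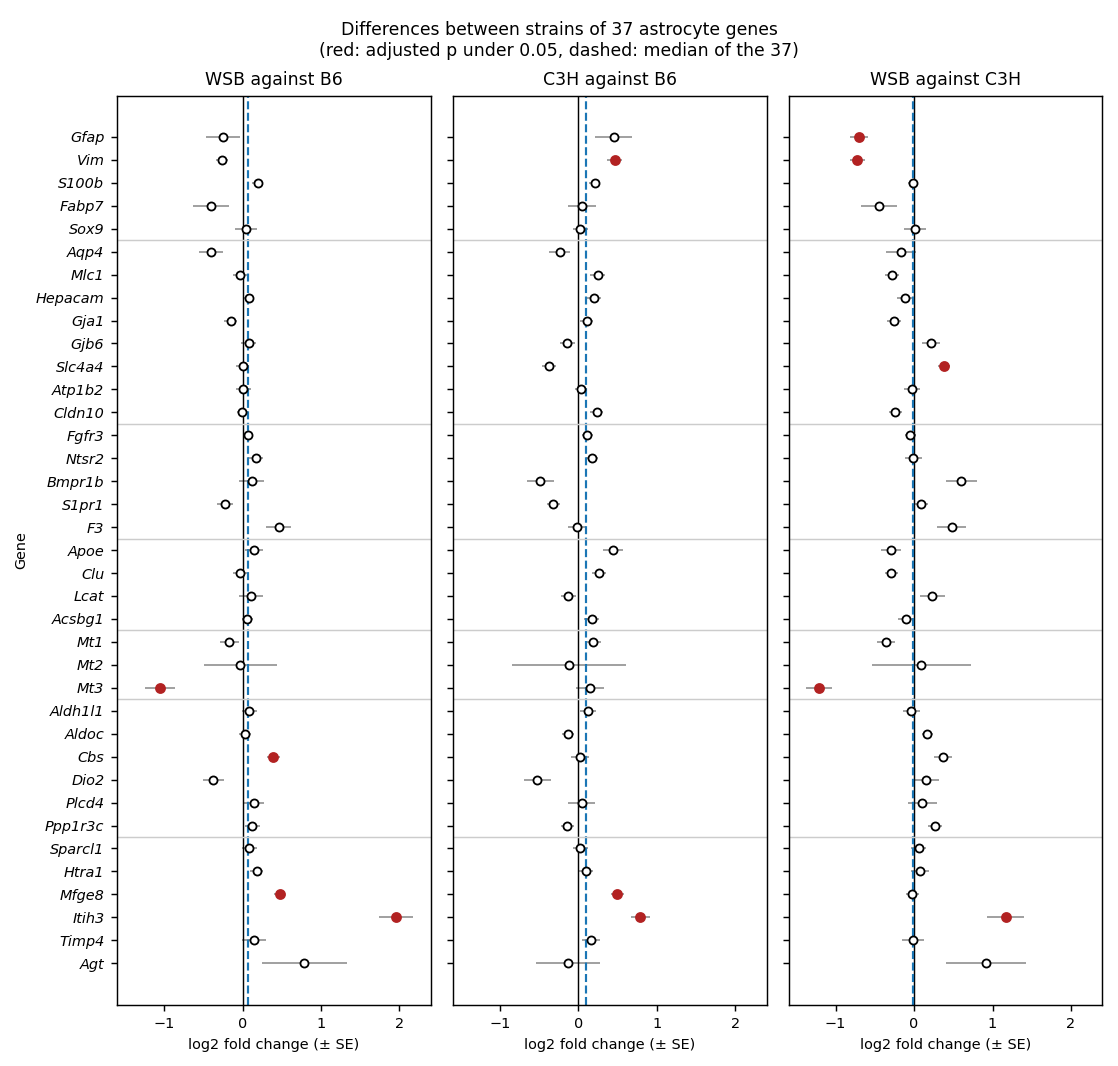
The log2 fold change of each of the 37 genes (rows, ordered by role) in the 3 comparisons, with bars of 1 SE; red points have an adjusted p under 0.05 and the dashed line is the median of the 37. Most points lie close to the dashed line, and Itih3 and Mt3 lie farthest from it among the red points.

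Itih3 had the largest difference of the 37 genes. It encodes a heavy chain of the inter-alpha-trypsin inhibitors, secreted proteins that bind hyaluronan in the extracellular matrix, and lies on chromosome 14 from 30908572 to 30923760 on the minus strand (ENSMUSG00000006522, coordinates matching GRCm38). Its level was 5.08, 5.47 and 5.19 FPKM in the B6 mice, 8.08, 8.68 and 10.8 in the C3H mice, and 16.1, 30.5 and 17.8 in the WSB mice. The 3 strains formed 3 separate steps with no overlap, and WSB replicate 2 stood above the other WSB mice.

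Itih3 was higher in WSB than in B6 by 1.95 ± 0.22 (SE) on the log2 scale, or 3.87-fold, with an adjusted p of 0.00276 (limma). It passed whichever mouse was left out, and the log2 fold change was 1.67 at its lowest. In C3H it was higher than in B6 by 0.79 ± 0.12 (SE), or 1.73-fold, with an adjusted p of 0.0125 (limma). That call was lost without B6 replicate 1 or B6 replicate 3, at an adjusted p of at most 0.0529, and in one fit of the 3 strains, at an adjusted p of 0.0583 (limma). Between WSB and C3H the difference was 1.17 ± 0.24 (SE), or 2.24-fold, with an adjusted p of 0.0346 (limma), and it passed when WSB replicate 1 or WSB replicate 2 was left out but not without any one of the C3H mice or WSB replicate 3, where the log2 fold change was between 1.08 and 1.29 and the adjusted p at most 0.141.

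Mfge8 encodes milk fat globule-EGF factor 8, a secreted bridge between phosphatidylserine on dying cells and integrins on phagocytes. The gene lies on chromosome 7 from 79133768 to 79149060 on the minus strand (ENSMUSG00000030605). Its level was 40.4, 44.6 and 42.3 FPKM in B6, 66.2, 56.7 and 57.4 in C3H, and 58.4, 62.4 and 56.5 in WSB. B6 was the low strain, and the C3H and WSB mice overlapped at a common higher level.

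Mfge8 was higher in WSB than in B6 by 0.48 ± 0.070 (SE) on the log2 scale, or 1.39-fold (limma, adjusted p of 0.00925), and passed whichever mouse was left out. In C3H it was higher by 0.50 ± 0.085 (SE), or 1.41-fold (limma, adjusted p of 0.0191). This second call remained without C3H replicate 2 and was lost without any one of the other 5 mice, at a log2 fold change of at least 0.43 and an adjusted p of at most 0.0721. Between WSB and C3H the difference was -0.022 ± 0.085 (SE).

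Mt3, Mt1 and Mt2 encode metallothioneins, small cysteine-rich proteins that bind zinc and copper, and the 3 genes lie side by side on chromosome 8. Mt3 (ENSMUSG00000031760, from 94152607 to 94154146 on the plus strand) encodes the form that is abundant in brain. Mt3 had 262, 381 and 382 FPKM in B6, 449, 338 and 344 in C3H, and 146, 202 and 143 in WSB. Every WSB mouse lay below every B6 and C3H mouse, whereas B6 and C3H overlapped.

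Mt3 was lower in WSB than in B6 by 1.06 ± 0.19 (SE) on the log2 scale, and WSB had 0.481 times the B6 level (limma, adjusted p of 0.0203). That call remained without B6 replicate 1 or WSB replicate 2 and was lost without B6 replicate 2, B6 replicate 3, WSB replicate 1 or WSB replicate 3, where the log2 fold change stayed between -0.98 and -0.96 and the adjusted p reached 0.0851. Against C3H it was lower by 1.21 ± 0.17 (SE), or 0.433 times the C3H level (limma, adjusted p of 0.00784), and this call held whichever mouse was left out. C3H and B6 differed by 0.15 ± 0.18 (SE) on the log2 scale, with an adjusted p of 0.636 (limma).

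The neighbouring Mt1 did not pass in any comparison. Mt1 (ENSMUSG00000031765, from 94179082 to 94180327) had 161, 168 and 187 FPKM in B6, 201, 180.0 and 207 in C3H, and 149.7, 178 and 134 in WSB. WSB lay wholly below C3H but overlapped with B6, and the log2 fold change was -0.17 ± 0.12 (SE) in WSB against B6 and -0.36 ± 0.12 (SE) in WSB against C3H, with adjusted p-values of 0.493 and 0.127 (limma). Mt2 was listed at 0.263 to 2.28 FPKM with 3 to 27 reads, far below Mt1 and Mt3, and an annotated antisense gene, Gm45774, covers 749 of its 905 bases. Whether reads were counted by strand is not stated in the sources used here, so the reads of Mt2 and Gm45774 cannot be told apart. The effect of this overlap on the count of Mt2 was not tested. With so few reads a difference of Mt2 between strains was not detectable.

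Upstream sequences are shown for Mt3 and Mfge8, the members that passed in at least 2 comparisons and whose 250 bases before the RefSeq start hold no annotated exon. They come from RefSeq on GRCm38.p6, that is, from the B6 genome, and the C3H and WSB sequences were not examined. Each window was searched on both strands for TGCGCNC or TGCACNC (the core of the metal response element), TATAAA (the TATA box), CCAAT (the CCAAT box) and GGGCGG (the GC box). The first pair of motifs was found in 21.4% of 32851 such mouse windows, TATAAA in 12.4%, CCAAT in 33.9% and GGGCGG in 32.7%. Capitals mark a match on either strand, and no matches overlap.
Mt3, chr8:94152357-94152606, plus strand: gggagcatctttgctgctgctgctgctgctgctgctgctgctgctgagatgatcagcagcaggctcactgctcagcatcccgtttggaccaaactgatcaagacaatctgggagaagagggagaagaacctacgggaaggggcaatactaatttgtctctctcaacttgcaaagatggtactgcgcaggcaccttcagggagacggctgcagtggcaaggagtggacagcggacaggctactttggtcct
Mfge8, chr7:79149061-79149310, minus strand: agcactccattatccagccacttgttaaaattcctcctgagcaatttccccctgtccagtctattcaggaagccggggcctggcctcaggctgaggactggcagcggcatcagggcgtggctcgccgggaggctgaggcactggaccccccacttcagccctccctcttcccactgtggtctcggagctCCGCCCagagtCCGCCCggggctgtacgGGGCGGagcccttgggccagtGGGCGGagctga
The Mt3 window holds no match and the Mfge8 window holds 4 matches to GGGCGG. The window of Mt2 holds 3 matches to the metal response element core and that of Mt1 holds 1. A match is a run of letters and not a site shown to be used.

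**Figure D3:**
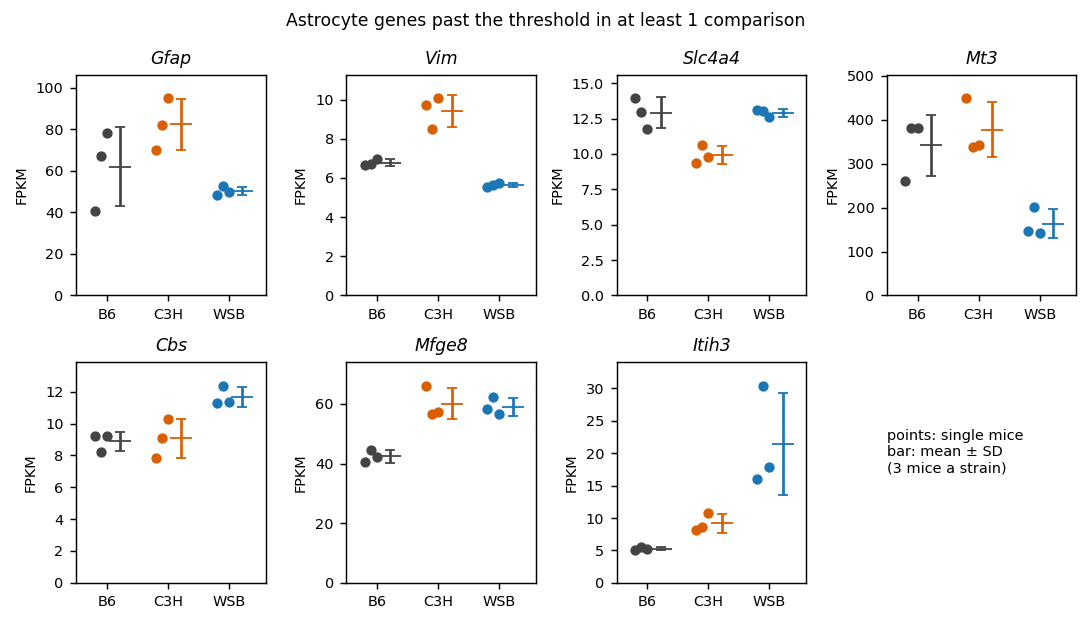
FPKM of the 7 genes that passed in at least 1 comparison, with 1 point per mouse and a bar for the mean ± SD of the 3 mice of a strain; each axis starts at 0. Itih3 rises in steps from B6 to WSB, Mfge8 is low in B6 alone, Mt3 is low in WSB, and Vim and Slc4a4 set C3H apart in opposite directions.

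Gfap and Vim encode intermediate filament proteins of astrocytes, and Vim is also expressed by endothelial and other cells. Vim (ENSMUSG00000026728, chromosome 2, from 13573927 to 13582826) had 6.66, 6.70 and 6.99 FPKM in B6, 9.71, 8.48 and 10.1 in C3H, and 5.55, 5.66 and 5.76 in WSB. The 3 strains did not overlap, with C3H highest and WSB lowest. Vim was higher in C3H than in B6 by 0.46 ± 0.093 (SE) on the log2 scale, or 1.38-fold (limma, adjusted p of 0.0354), but this call was lost without any one mouse other than C3H replicate 2, at a log2 fold change of at least 0.41 and an adjusted p of at most 0.138. It was lower in WSB than in C3H by 0.72 ± 0.093 (SE), to 0.606 times the C3H level (limma, adjusted p of 0.0059), whichever mouse was left out. WSB against B6 gave -0.26 ± 0.075 (SE) with an adjusted p of 0.106 (limma).

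Gfap (ENSMUSG00000020932, chromosome 11, from 102887336 to 102900912) varied more within strains. It had 40.9, 67.2 and 78.3 FPKM in B6, 70.2, 82.0 and 95.1 in C3H, and 48.5, 52.6 and 49.7 in WSB. B6 spanned the whole range of WSB and overlapped with C3H, and WSB lay below C3H. Gfap was lower in WSB than in C3H by 0.70 ± 0.11 (SE) on the log2 scale, to 0.615 times the C3H level (limma, adjusted p of 0.0141), a call lost without WSB replicate 1 or WSB replicate 3, at log2 fold changes of -0.68 and -0.69 and an adjusted p of at most 0.0629, and in one fit of the 3 strains, at an adjusted p of 0.0732 (limma). The differences from B6 were 0.45 ± 0.23 (SE) in C3H and -0.25 ± 0.22 (SE) in WSB, with adjusted p-values of 0.281 and 0.576 (limma). Without B6 replicate 1, the mouse with the lowest level, Gfap passed as lower in WSB than in B6 at a log2 fold change of -0.53 (limma, adjusted p of 0.0304). The annotated gene Gm26668 lies across Gfap on the other strand, with 6 to 42 reads.

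The other genes of this group did not pass. S100b, a calcium-binding protein of astrocytes, had 92.2, 85.1 and 93.2 FPKM in B6, 105, 101 and 105 in C3H, and 101, 107 and 101 in WSB. B6 was the lowest strain without overlap, at log2 fold changes of 0.19 ± 0.067 (SE) in WSB and 0.21 ± 0.070 (SE) in C3H, with adjusted p-values of 0.162 and 0.138 (limma). Sox9, a transcription factor of astrocyte nuclei, had 8.28, 8.68 and 7.49 FPKM in B6, 7.76, 8.25 and 8.85 in C3H, and 7.45, 7.58 and 10.4 in WSB, so that all 3 strains overlapped. Its log2 fold change was between 0.015 and 0.039 in the 3 comparisons, with SEs of 0.094 to 0.14 and adjusted p-values of 0.899 to 0.961 (limma). Fabp7, a fatty acid binding protein of radial glia and astrocytes, ranged from 11.2 to 26.3 FPKM over the 9 mice and overlapped between strains.

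Among the genes of transport, junctions and water, Slc4a4 passed in 1 comparison. It encodes a sodium bicarbonate cotransporter (ENSMUSG00000060961, chromosome 5, from 88886818 to 89239653). Slc4a4 had 13.9, 13.0 and 11.8 FPKM in B6, 9.38, 10.6 and 9.75 in C3H, and 13.1, 13.0 and 12.6 in WSB. C3H lay below both other strains, which overlapped. Slc4a4 was higher in WSB than in C3H by 0.38 ± 0.078 (SE) on the log2 scale, or 1.30-fold (limma, adjusted p of 0.0359), but it passed without C3H replicate 2 and with no other mouse left out, at a log2 fold change of at least 0.34 and an adjusted p of at most 0.136. C3H against B6 gave -0.38 ± 0.093 (SE) with an adjusted p of 0.07 (limma).

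Aqp4 encodes aquaporin-4, the water channel of astrocyte end feet. Aqp4 had 24.8, 24.8 and 24.2 FPKM in B6, 17.9, 26.1 and 19.4 in C3H, and 23.6, 15.1 and 18.1 in WSB. The WSB mice lay below the B6 mice, and C3H replicate 2 lay above all the others. The log2 fold change was -0.40 ± 0.15 (SE) in WSB against B6 and -0.24 ± 0.14 (SE) in C3H against B6, with adjusted p-values of 0.188 and 0.321 (limma). Without WSB replicate 1, Aqp4 passed as lower in WSB than in B6 at -0.57 (limma, adjusted p of 0.0347).

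Gja1 encodes connexin 43, the main gap junction protein of astrocytes. Gja1 had 19.6, 17.6 and 19.2 FPKM in B6, 18.8, 20.8 and 20.9 in C3H, and 18.6, 16.3 and 15.8 in WSB. WSB lay just below C3H, and both overlapped with B6, with log2 fold changes of -0.15 ± 0.087 (SE) in WSB against B6, 0.10 ± 0.080 (SE) in C3H against B6 and -0.26 ± 0.090 (SE) in WSB against C3H, and adjusted p-values of 0.146 to 0.456 (limma). Its partner Gjb6, connexin 30, ranged from 21.4 to 28.6 FPKM and overlapped in every pair of strains. Mlc1 and Hepacam, whose proteins form a membrane complex in end feet, ranged from 60.8 to 88.9 FPKM and from 28.1 to 37.6 FPKM. Both were higher in all C3H mice than in all B6 mice, with log2 fold changes of 0.25 and 0.20 and adjusted p-values of 0.179 and 0.231 (limma). Cldn10, a claudin, had its 3 C3H mice above all others, at 11.7 ± 0.879 FPKM (mean ± SD of 3 mice) in C3H beside 9.96 ± 0.473 for B6 and 9.93 ± 0.242 for WSB. Atp1b2, a beta subunit of the sodium-potassium pump, overlapped in every pair, with log2 fold changes of -0.025 to 0.036.

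With all mice in the fit no receptor passed with limma, and 1 of the 5 in WSB against B6, 3 in C3H against B6 and 2 in WSB against C3H had an unadjusted p under 0.05. Bmpr1b, a receptor of bone morphogenetic proteins, averaged 3.43 ± 0.426 FPKM (SD of 3 mice) in B6, beside 2.45 ± 0.539 for C3H and 3.75 ± 0.714 for WSB. S1pr1, a receptor of sphingosine 1-phosphate also found on endothelial cells, averaged 45.7 ± 4.27 FPKM (SD of 3 mice) in B6, beside 36.6 ± 1.22 for C3H and 39.1 ± 3.65 for WSB, and its C3H mice lay below all B6 mice. F3, tissue factor, the starter of coagulation, had 22.8 and 22.6 FPKM in WSB replicates 1 and 2, above the 15.0 of the third WSB mouse and the 12.6 to 16.5 of the other strains. Without WSB replicate 3, F3 passed as higher in WSB, at a log2 fold change of 0.66 against B6 and 0.68 against C3H (limma, adjusted p-values of 0.0136 and 0.0466). Fgfr3, a receptor of fibroblast growth factors, kept to 14.4 to 16.5 FPKM, the narrowest spread of the 37 genes, and Ntsr2, a neurotensin receptor, to 38.6 to 51.4.

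Apoe encodes apolipoprotein E and had the highest level of the 37 genes. Apoe had 810.1, 949 and 896 FPKM in B6, 1233, 1058 and 1320.2 in C3H, and 882, 1085 and 976 in WSB. C3H lay above B6 without overlap, and WSB overlapped with both. The log2 fold change was 0.44 ± 0.13 (SE) in C3H against B6, with an adjusted p of 0.096 (limma), and 0.15 ± 0.12 (SE) in WSB against B6, with an adjusted p of 0.556 (limma). Clu, clusterin or apolipoprotein J, averaged 297 ± 17.5 FPKM (SD of 3 mice) in C3H, above the 248 ± 19.1 of B6 and the 243 ± 13.3 of WSB without overlap, with adjusted p-values of 0.149 against B6 and 0.0926 for WSB against C3H (limma). With voom weights Apoe passed in C3H against B6 and Clu in WSB against C3H. Lcat, which esterifies cholesterol on lipoproteins, and Acsbg1, an acyl-CoA synthetase, ranged from 14.9 to 23.3 and from 43.7 to 58.9 FPKM, with log2 fold changes of -0.13 to 0.23 and adjusted p-values of at least 0.299 (limma).

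Of the enzymes, Cbs passed in 1 comparison. Cbs encodes cystathionine beta-synthase, which makes cystathionine from homocysteine (ENSMUSG00000024039, chromosome 17). Cbs had 9.24, 8.21 and 9.24 FPKM in B6, 7.81, 9.06 and 10.3 in C3H, and 11.3, 12.4 and 11.4 in WSB. WSB was the highest strain without overlap, and B6 lay within the range of C3H. Cbs was higher in WSB than in B6 by 0.39 ± 0.083 (SE) on the log2 scale, or 1.31-fold (limma, adjusted p of 0.0394), and lost the call with any 1 of the 6 mice left out, at a log2 fold change of at least 0.33 and an adjusted p of at most 0.138. Against C3H the difference was 0.37 ± 0.11 (SE) with an adjusted p of 0.11 (limma).

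Aldh1l1 and Aldoc, used as general astrocyte markers, were nearly level. Aldh1l1, the folate enzyme 10-formyltetrahydrofolate dehydrogenase, had 14.8, 15.0 and 17.0 FPKM in B6, 16.6, 15.6 and 18.9 in C3H, and 14.9, 16.5 and 18.4 in WSB, with all strains overlapping. Its log2 fold changes were 0.088 ± 0.099 (SE) in WSB against B6, 0.13 ± 0.099 (SE) in C3H against B6 and -0.038 ± 0.11 (SE) in WSB against C3H, with adjusted p-values of 0.468 to 0.862 (limma). Aldoc, the brain form of aldolase in glycolysis, had 294, 310.2 and 324 FPKM in B6, 279, 277 and 288 in C3H, and 306, 327 and 315 in WSB. C3H lay below both other strains, and its log2 fold change was -0.14 ± 0.078 (SE) against B6, with an adjusted p of 0.315 (limma).

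Dio2, the deiodinase that activates thyroid hormone in astrocytes, had 19.4, 14.6 and 15.2 FPKM in B6, 10.1, 14.4 and 9.94 in C3H, and 14.4, 11.0 and 12.5 in WSB. B6 was the highest strain without overlap, at log2 fold changes of -0.37 ± 0.14 (SE) in WSB and -0.52 ± 0.17 (SE) in C3H, with adjusted p-values of 0.19 and 0.128 (limma). Plcd4, a phospholipase C, and Ppp1r3c, which targets a phosphatase to glycogen, ranged from 1.58 to 2.44 and from 17.0 to 23.0 FPKM.

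The remaining secreted proteins did not pass. Sparcl1, also called hevin, a matrix protein that takes part in synapse formation, ranged from 558 to 650.0 FPKM with log2 fold changes of 0.025 to 0.086. Htra1, a secreted serine protease, ranged from 49.1 to 65.9 FPKM, and Timp4, an inhibitor of metalloproteases, from 5.22 to 8.24 FPKM. Agt, angiotensinogen, had the widest spread of the genes with over 100 reads in every mouse. Agt had 4.16, 11.4 and 8.14 FPKM in B6, 4.89, 5.65 and 10.7 in C3H, and 9.54, 28.6 and 7.41 in WSB. WSB replicate 2 had the highest level of Agt as well as of Itih3, and no strain was apart from another in Agt. The span of Timp4 lies within that of the neuronal gene Syn2 on the other strand (9543 to 15314 reads), and that of Htra1 within the span listed for Fgfr2. These spans include introns, and whether the exons overlap was not examined. With the strand setting also unknown, any effect on their values cannot be told. In all, 12 of the 37 genes have a span, introns included, that overlaps the span of another annotated gene. Among them are S100b with Dip2a (963 to 1507 reads) and Plcd4 with Usp37 and Zfp142.

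In C3H against B6 the median difference was larger for the members with a high GC content of their transcripts than for the others. Of the 19 genes with a GC of at least 50%, 15 had a log2 fold change above 0, with a median of 0.17. Of the 18 with a lower GC, 10 were above 0, with a median of 0.022. Over all genes tested the medians were 0.12 for the 9828 genes of at least 50% GC and -0.14 for the 10751 genes below, with a Spearman's rho of 0.34 between log2 fold change and GC across genes, which are not independent replicates. For WSB against B6 rho was 0.067, and in WSB against C3H it was -0.26.

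With the GC trend of all genes removed in each comparison, the median of the 37 genes became 0.047 in C3H against B6, 0.057 in WSB against B6 and 0.043 in WSB against C3H. The same number of genes passed in both comparisons with B6, and Gja1 was added in WSB against C3H at a log2 fold change of -0.45 (limma, adjusted p of 0.0272). The part of GC content in the difference between C3H and B6 was not tested further.

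**Figure D4:**
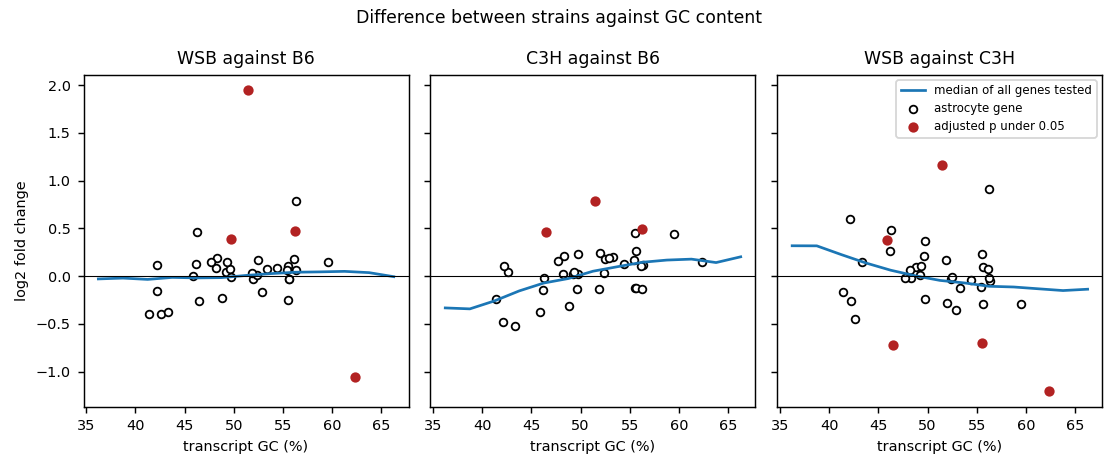
The log2 fold change of each of the 37 genes (points, red where the adjusted p is under 0.05) against the GC content of its transcript in percent, in the 3 comparisons; the line is the median of all genes tested in bins of 2.5 percentage points of GC. In C3H against B6 the line rises from -0.33 in the lowest bin to 0.20 in the highest. The astrocyte genes of at least 50% GC lie mostly above 0 there, and those of lower GC lie on both sides of 0. In WSB against B6 the line is almost flat.

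C3H replicate 2 differed from the other C3H mice in several of these genes. Without it, calls over all genes in C3H against B6 rose from 956 of 20602 to 2301 of 20562, so the change was not confined to the list. Of the 37 genes, 8 then passed, beside 11.2% of all genes. To Itih3, Mfge8 and Vim were added Apoe at a log2 fold change of 0.53, Aqp4 at -0.40, Slc4a4 at -0.43, Bmpr1b at -0.64 and Dio2 at -0.69, with adjusted p-values of 0.0246 to 0.0467 (limma). Without B6 replicate 1 or B6 replicate 3, no gene of the list passed in that comparison with limma, beside 530 of 20513 and 569 of 20620 genes tested. Of the list, 7 and 14 genes had an unadjusted p under 0.05 in these fits.

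Further genes known from astrocytes were taken from a list of 30 that shares no gene with the 37. In WSB against B6, 5 of these 30 were lower and 0 higher with limma (8 were lower and 4 higher at an unadjusted p under 0.05), beside 3.09% and 2.81% of all genes tested, with a median log2 fold change of -0.059. The 5 were Glul, the glutamine synthetase that turns glutamate into glutamine (-0.49), Ednrb, an endothelin receptor (-0.46), Id3, a transcriptional inhibitor (-0.64), Etnppl, a phospholyase of phosphoethanolamine (-1.43), and Cyp4f14, a cytochrome P450 (-1.27). Etnppl (-2.66) and Fam107a (-0.49) were lower in C3H than in B6, beside 2.26% of all genes tested, and the median was -0.065. In WSB against C3H, Glul (-0.40), Ednrb (-0.55) and Cyp4f14 (-0.79) were lower and Fam107a (0.52) was higher, beside 3.13% and 2.61% of all genes tested. The median there was 0.084.

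Glul had 555, 491 and 542 FPKM in B6, 501, 469.8 and 514 in C3H, and 383, 392 and 353 in WSB. All WSB mice lay below all others. The glutamate transporters of astrocytes did not pass, with 127 to 188 FPKM for Slc1a2 and 65.4 to 74.1 FPKM for Slc1a3 over the 9 mice. In this second list the median lay between -0.065 and 0.084 in the 3 comparisons.

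Of 30 genes known to go up in reactive astrocytes, a list that leaves out Gfap and Vim and of which 25 to 28 were tested in a comparison, Serpina3n alone passed. It was higher in WSB, beside 2.81% of all genes tested against B6 and 2.61% against C3H. Serpina3n encodes a secreted protease inhibitor and has close paralogs among which reads may be split. It had 4.68, 6.14 and 8.34 FPKM in B6, 7.65, 7.10 and 7.64 in C3H, and 18.6, 19.2 and 14.9 in WSB. WSB was the highest strain without overlap, by 1.47 ± 0.21 (SE) on the log2 scale against B6 and 1.21 ± 0.11 (SE) against C3H (limma, adjusted p-values of 0.0072 and 0.00121). The medians of the tested genes of this list were -0.036 in WSB against B6, 0.14 in C3H against B6 and -0.20 in WSB against C3H. In WSB against B6, 4 of 25 were higher and 5 lower at an unadjusted p under 0.05 (limma), beside 4235 of 20746 genes. For C3H against B6, 5 of 28 were higher and 1 lower, beside 4972 of 20602. For WSB against C3H, 2 of 27 were higher and 2 lower, beside 4912 of 20607. Many of the list were low, such as Osmr at 0.113 to 0.286 FPKM, so not passing does not show equal levels. Lcn2, a gene that goes up strongly in reactive astrocytes, was at most 0.0614 FPKM in any mouse.

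Markers of other cell types were measured beside the astrocyte genes. The 10 oligodendrocyte genes had a median log2 fold change of -0.69 in WSB against B6, -0.13 in C3H against B6 and -0.57 in WSB against C3H, and their summed level spanned 946 to 1198 FPKM among the B6 mice, 873 to 1161 among the C3H mice and 509 to 723 among the WSB mice. The 10 microglia genes had medians of -0.33, 0.068 and -0.40 in the same order, with summed levels of 227 to 236 FPKM for B6, 205 to 239.7 for C3H and 174 to 188 for WSB. The 10 neuron genes had medians of -0.0078, 0.0060 and 0.039, and Syt1 alone of them passed. Syt1 was lower in C3H than in B6 (-1.105) and higher in WSB than in C3H (0.86), beside 2.26% and 2.61% of all genes tested. In WSB against B6, 3 of the 10 oligodendrocyte genes (Mobp, Mal and Cldn11) and 4 of the 10 microglia genes (Csf1r, C1qb, C1qc and Trem2) passed as lower with limma. Over all genes tested 3.09% did so, and 3 microglia genes had a log2 fold change above 0. In WSB against C3H, 1 oligodendrocyte gene (Mog) and 3 microglia genes (C1qa, C1qc and Trem2) passed as lower, beside 3.13% of all genes tested. Between C3H and B6 no oligodendrocyte gene passed with limma (2 had an unadjusted p under 0.05). C1qb and C1qc were lower and Aif1 was higher in C3H, beside 2.26% and 2.38% of all genes tested. The part of these cells in the results on the 37 genes was not tested.

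Tissue beside the cortex varied within strains. The summed level of 6 striatal genes was 156 to 639 FPKM for B6, 143 to 407 for C3H and 106 to 288 for WSB, and that of 6 choroid plexus genes was 64.3 to 766, 92.1 to 657 and 468 to 605. B6 replicate 1, with the highest striatal level, had the lowest Gfap and Agt of all mice. Among the C3H mice, replicate 3 had the highest striatal level together with the highest Gfap and Agt. Among the WSB mice, replicate 3 had the highest striatal level and the lowest Agt, but not the lowest Gfap. The part of these tissues in the differences between strains was not tested. The 5 genes of blood had summed levels of 217 to 254 FPKM for B6, 632 to 1009.5 for C3H and 249 to 329 for WSB. Hba-a1 (2.28), Hbb-bs (1.49) and Alas2 (1.06) were higher in C3H than in B6 on the log2 scale (limma), beside 2.38% of all genes tested. In WSB against B6, Hba-a1 (0.91) passed as higher and Hbb-bt (-4.56) as lower, beside 2.81% and 3.09%. Single globin genes varied widely within a strain. In C3H, Hbb-bt spanned 2.20 to 69.3 FPKM and Hba-a2 1.37 to 82.2. In WSB, Hba-a2 spanned 0.246 to 35.5 FPKM. The cause of this spread was not tested, so the difference in Hbb-bt cannot be read as one in blood content. Hba-a1 (-1.37), Hbb-bs (-1.34) and Alas2 (-1.05) were lower in WSB than in C3H, beside 3.13%. The part of blood in the results on C3H and WSB was not tested. The 8 genes of meningeal fibroblasts, the 6 of ependymal cells, the 5 of oligodendrocyte precursors, the 10 of vessels and the 6 of hippocampus had summed levels of at most 34.4, 23.1, 104, 102 and 119.7 FPKM in any mouse. Of the vessel genes, Ly6c1 (-6.76), Slco1a4 (-0.60) and Acta2 (-1.01) passed as lower in WSB than in B6, beside 3.09% of all genes tested. In WSB against C3H, Ly6c1 (-7.13) and Slco1a4 (-0.61) were lower and Rgs5 (0.72) was higher, beside 3.13% and 2.61%. Ly6c1 had 0 FPKM in every WSB mouse, beside means of 10.8 FPKM in B6 and 14.2 FPKM in C3H. The size of its log2 fold changes in WSB thus depends on the constant added to FPKM and is not a measured fold. The cause of the missing Ly6c1 reads was not tested, so this difference cannot be read as one in vessel content. Wfs1 alone of the 6 hippocampal genes passed, higher in WSB than in B6 (0.86) and in C3H (0.63), beside 2.81% and 2.61%. Rarres2 alone of the 6 ependymal genes passed, higher in WSB than in B6 (0.77), beside 2.81%.

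**Figure D5:**
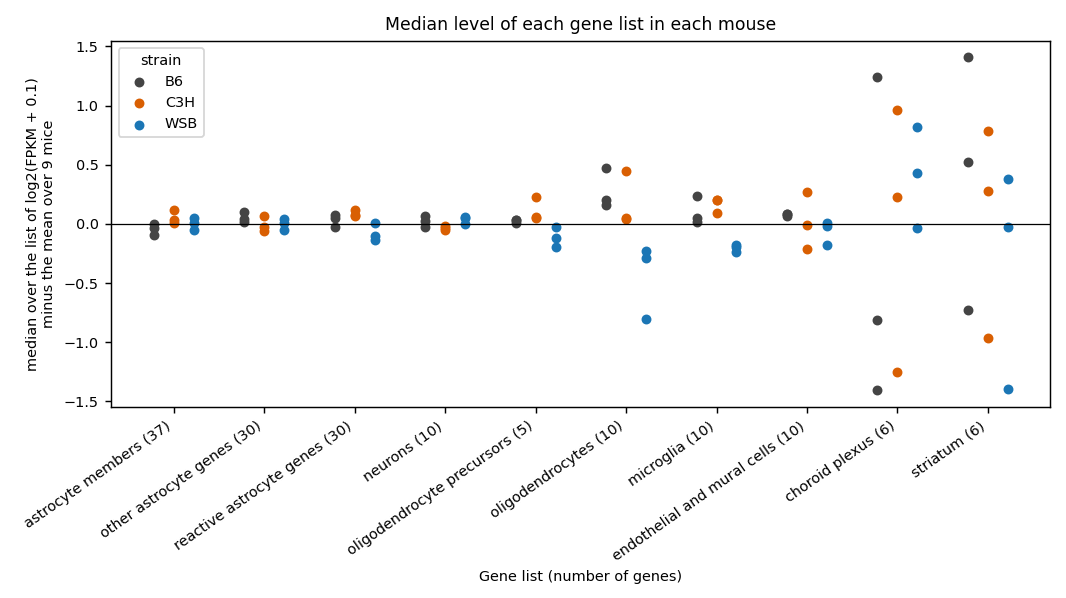
The median over each gene list of log2(FPKM + 0.1) minus the gene's mean over the 9 mice, with 1 point per mouse and the number of genes of each list in brackets. The 37 astrocyte genes stay between -0.094 and 0.12, the medians of the oligodendrocyte and microglia genes are below 0 in the 3 WSB mice, and choroid plexus and striatal genes vary most within strains.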

How the data were processed

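Cortex RNA of the 9 males was sequenced by the authors with paired-end reads, trimmed with Cutadapt and counted on genes with HTSeq. The submitters' processing notes also name STAR and DESeq2, without versions. The authors deposited FPKM per gene and mouse. FPKM times gene length and a denominator fitted per library gave a whole number of reads in every library (tolerance 0.01), which gave the depth and the voom weights. Coordinates matched GENCODE M21 (GRCm38) for 34 of the 37 genes, the exceptions being Aqp4, Cbs and Ppp1r3c, and the transcripts' GC content came from it.

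limma 3.58.1 in R 4.3.3 (lmFit, eBayes with a trend, two-sided) was run on log2(FPKM + 0.1) of the 6 mice of 2 strains, keeping genes whose mean reached 0.1 FPKM, with Benjamini-Hochberg adjustment over all genes and a threshold of 0.05. It was tested on simulated data. The labels name a separate mouse for each sample. All 37 genes are accounted for. Full values are given for those that passed in at least 1 comparison and for Gfap, Aqp4, Aldh1l1, Aldoc, Gja1, S100b, Sox9 and Apoe, and genes of other lists are named where they passed. The other gene values in the text (among them Mt1, Dio2, Agt, Glul, Slc1a2, Slc1a3 and Lcn2) were chosen after the values were seen. The members and lists were chosen with earlier results of these data known. The alternatives tried were a pseudocount of 1 or 0.01, a minimum of 1 FPKM or none, median-ratio and total-read rescaling, centring on the 37 genes, removal of the GC trend, one fit of the 3 strains, no trend in eBayes, voom weights, protein-coding genes alone, a replicate block and leaving out each mouse. Figures were drawn with matplotlib 3.10.9.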

Additional observations from a re-analysis of the deposited data

Results flagged for a closer look

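The difference from B6 passed as unlike in WSB and C3H for 5 of the 37 genes, or 13.5%, beside 1182 of 20607 genes tested. This was tested directly between WSB and C3H with limma. Of the 5, Vim and Mt3 passed whichever mouse was left out, and Gfap, Slc4a4 and Itih3 did not. On the log2 scale the effect in WSB minus that in C3H was -0.70 for Gfap, -0.72 for Vim, 0.38 for Slc4a4, -1.21 for Mt3 and 1.17 for Itih3. Itih3 was above B6 in both strains, and further above it in WSB. Gfap and Vim had log2 fold changes against B6 of opposite sign in the 2 strains, of which Vim in C3H alone passed. Mt3 passed against B6 in WSB alone, while Slc4a4 passed in neither strain against B6. Samples of a strain were too few, at 3, for a test of single mice that stand apart.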

How the results depend on the processing

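None of the 12 differences of single genes that passed changed sign under any of the 13 alternatives or with any mouse left out, and 4 of them passed with every mouse left out. The number of the 37 genes that passed stayed within 1.5 times that reported (4 in WSB against B6, 3 in C3H against B6 and 5 in WSB against C3H) under a pseudocount of 1 or 0.01, a minimum of 1 FPKM or none, both rescalings, removal of the GC trend, one fit of the 3 strains (where Slc4a4 passed in place of Itih3 in C3H against B6) and protein-coding genes alone. With eBayes without a trend the numbers were 1, 1 and 2. In C3H against B6 the number was 1 after centring on the 37 genes and 5 with voom weights. With the replicate number as a block it was 3 in WSB against B6, 1 in C3H against B6 and 3 in WSB against C3H. The numbers do not pair the mice: deviations of same-numbered mice had correlations of -0.065 to 0.053, and a mouse went best with its own number in 3 of 18 cases. With 1 mouse left out, 2 to 4 genes passed in WSB against B6, 0 to 8 in C3H against B6 and 3 to 5 in WSB against C3H. Calls over all genes moved as well. In C3H against B6 they numbered 956 with all mice, 498 without C3H replicate 3 and 2301 without C3H replicate 2. The median log2 fold change of the 37 genes in C3H against B6 went from 0.10 to 0.0047 after centring, by construction, and to 0.047 with the GC trend removed, and in WSB against C3H it went from -0.015 to 0.043 with the GC trend removed, to 0.024 with total-read rescaling and to 0.035 after centring. The cause of the changes with the trend, voom weights and GC was not tested. With 1 mouse left out the median was between 0.031 and 0.084 in WSB against B6, 0.048 and 0.12 in C3H against B6, and -0.040 and 0.039 in WSB against C3H, where its sign was not kept. Mt2, with 3 to 27 reads in a mouse, was counted too low to compare, and the effect of its overlap with Gm45774 on that count was not tested.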
